A study of Danio rerio with 6 samples.

Results

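The genes described here are 34 genes that mark or act in T lymphocytes and natural killer (NK) cells, chosen by gene name, with earlier results of these data known. Of the 34, 32 had a row among the 32057 rows of the count table, and all 32 passed the filter on low counts; ctla4 and cd247 are not analysed here. They were measured by poly(A) RNA sequencing of whole kidney marrow (WKM) cells, the blood-forming tissue of adult zebrafish, in wild-type fish of the AB strain (WT) and in Tg(drl:hoxa9;hsp70:meis1) fish (Tg). Each of the 3 samples per genotype held the mixed cells of 3 kidneys. The labels give an age of 5 months for both genotypes, and the text of the study's results gives a younger age. In Tg fish the drl element, active across blood cells, drives a tagged hoxa9, and the heat shock promoter hsp70, not limited to blood, drives meis1b. Other fish of this line in the study were heat shocked once or repeatedly, starting as embryos, at a later stage or as adults. Control siblings, WT among them, were heat shocked in some of these experiments. No source used here gives the schedule of the sequenced fish of either genotype. No number shared by pools of the 2 genotypes is stated to mark a litter, day or batch.

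T cells recognise peptides on other cells through the T cell receptor, whose signal is set off by the co-receptors Cd4 or Cd8 and the kinase Lck and carried on by Zap70 and the adaptor Lat. Cytotoxic T cells and NK cells kill by releasing perforin, granzymes and NK-lysins (Nkl, granulysin-like proteins that damage membranes) or by showing Fas ligand. The receptor genes are assembled by the Rag1 and Rag2 recombinase in T cell precursors, mostly in the thymus, and in B cell precursors, which in adult zebrafish reside in the kidney. Several of the 32 genes are therefore not markers of T and NK cells alone. Both rag genes also mark B cell precursors, ptprc (Cd45) is carried by all leukocytes, and runx3, dusp2 and ccdc88b are used by other blood cells. In bulk RNA, fewer cells of a type and less RNA per cell cannot be told apart.

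Total counts were 53620374 to 64888212 per WT pool and 50767535 to 64055374 per Tg pool. Levels are CPM (counts scaled to the TMM-adjusted library size), not corrected for gene length, so levels are compared between pools and not between genes. A count of 0 in 1 library allows at most 0.0457 to 0.0606 CPM (3 counts, counting error only). As a check of the labels, hoxa9a read 0, 0.143 and 0.960 CPM in WT, against 64.5, 78.1 and 101 CPM in Tg, and meis1b (row named MEIS1) 21.4, 24.5 and 26.7 against 77.2, 56.1 and 52.5 CPM. The T cell receptor beta constant gene trbc1 was detected in every pool, at 34.7, 23.8 and 26.8 CPM in WT, against 23.5, 26.3 and 33.5 CPM in Tg (log2 fold change -0.03, standard error 0.20). WT replicate 1 stood apart in kidney tubule genes, whose 10 markers summed to 4821 CPM there and to 1090 to 1698 CPM in the other 5 pools.

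Between the genotypes, the T and NK cell genes lay higher in Tg more often than lower, with no single gene past the test. At a false discovery rate (FDR, Benjamini-Hochberg over all 20123 genes tested) under 0.05, edgeR's quasi-likelihood test called 0 of the 32 higher and 0 lower, against 0.224% and 0.373% of all genes. At an unadjusted p under 0.05, 8 were higher (25% of 32, against 9.07% of all genes) and 0 lower (against 10.8%). The 8 were cd8b, lck, lat, ptprc, tox, tbx21, nkl.4 and rag1, at an FDR of 0.0853 to 0.239. In 11 genes all 3 Tg pools lay above all 3 WT pools (34.4% of 32, against 14.0% of all genes), and in 0 below (against 14.1%). These were the 8 with cd8a, tcf7 and fasl. A fold change of at least 2 upward was fitted for 4 genes (cd8a, cd8b, nkl.4 and fasl, against 6.02% of all genes) and downward for 0 (against 13.8%). Log2 fold changes were positive in 22 genes and negative in 10 (31.2%, against 49.1% of all genes), with a median of 0.32 against 0.01 over all genes. Where values of a gene follow in parentheses without names, they are its log2 fold change of Tg against WT and the standard error, from the quasi-likelihood fit. The counts changed with the pools used, and leaving out 1 pool also lowered the share of all genes that were higher. At an unadjusted p under 0.05, 5 genes were higher without WT replicate 2 (against 7.37% of all genes), without Tg replicate 2 (6.62%) or without Tg replicate 3 (5.18%). Without Tg replicate 3 the median log2 fold change of the 32 was 0.17. Without WT replicate 1, 12 were higher (8.44%) and the median was 0.48.

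Other tools gave different counts from the same libraries. DESeq2 was run without the filter on low counts, so its shares of all genes, here and below, are over 25304 genes. It called 5 of the 32 higher and 0 lower at an adjusted p under 0.05, where it called 2.53% of all genes higher and 5.59% lower. The 5 were cd8b (adjusted p = 0.00218), ptprc (0.00174), rag1 (0.00524), nkl.4 (0.0236) and lat (0.0326). With limma-voom 0 were called in either direction (against 0.124% of all genes in each), and 10 were higher and 0 lower at an unadjusted p under 0.05 (against 9.73% and 11.0%). Scaling by library size alone left 5 higher and 0 lower at an unadjusted p under 0.05, and moved the shares of all genes from 9.07% higher and 10.8% lower to 5.93% and 12.4%.

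**Figure D1:**
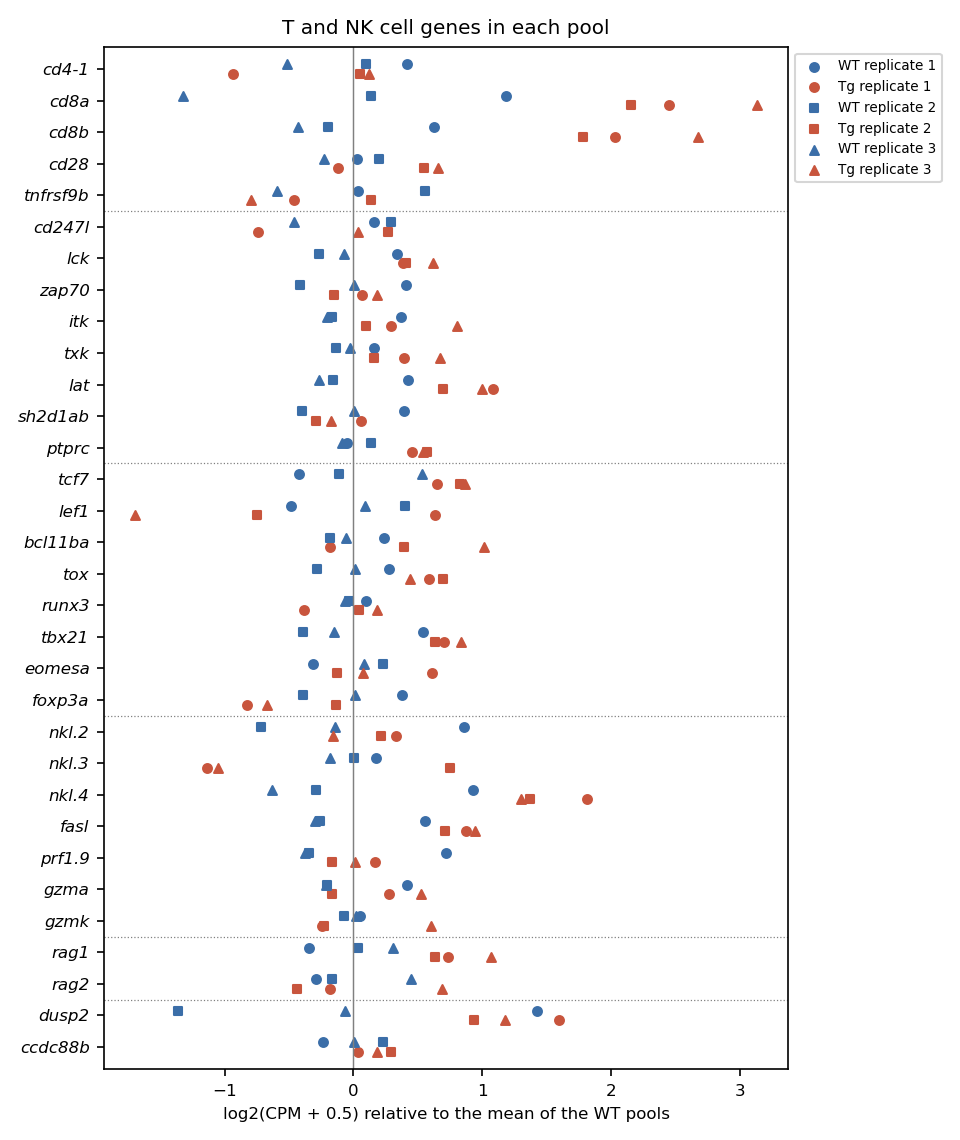
Level of each of the 32 T and NK cell genes in each pool, as log2(CPM + 0.5) relative to the mean of the 3 WT pools (horizontal axis), with WT in blue and Tg in red and the marker shape giving the replicate number; dotted lines part the groups of genes by role. The Tg points of cd8a, cd8b and nkl.4 lie to the right of all their WT points. Those of zap70 and nkl.2 lie among their WT points, and those of runx3 reach past its WT points on both sides.

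**Figure D2:**
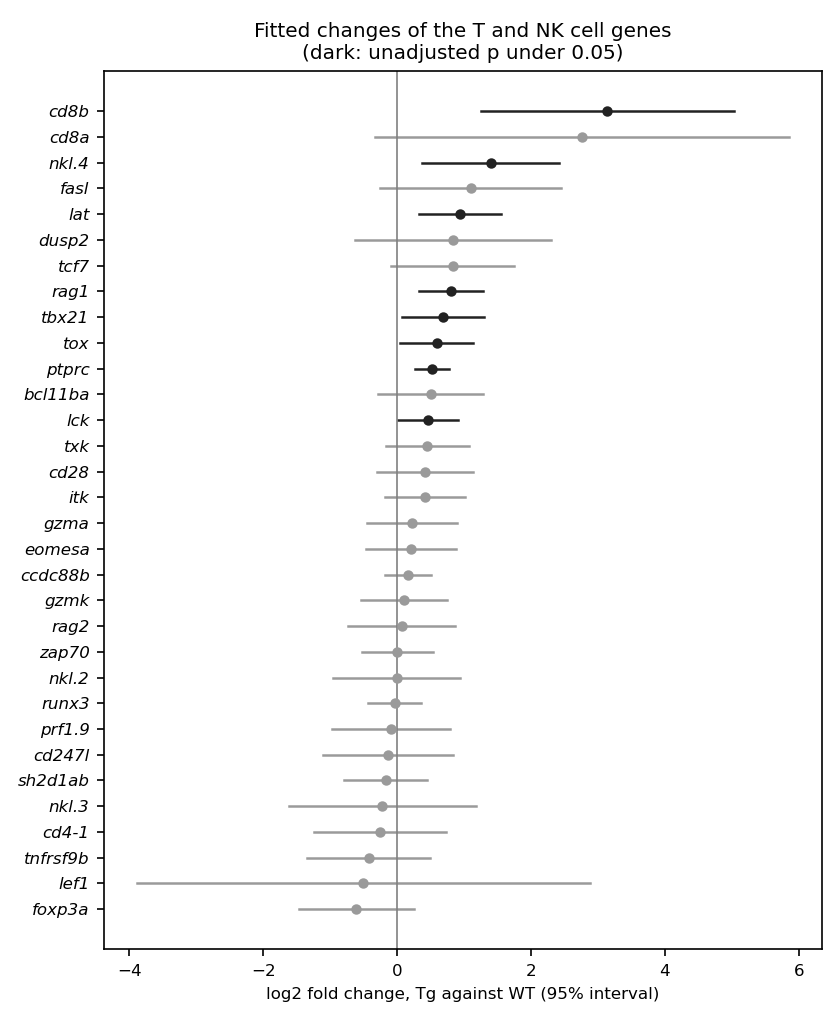
Log2 fold change of Tg against WT for each of the 32 genes (points) with its 95% interval (lines) from edgeR's quasi-likelihood fit over 6 pools, ordered by size. Dark lines mark the 8 genes with an unadjusted p under 0.05, all of them to the right of 0, and the intervals of cd8a (-0.33 to 5.86) and lef1 (-3.88 to 2.88) are wide.

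The Cd8 co-receptor genes had the highest fitted fold changes of the 32, from a low base. The level of cd8a, one chain of the co-receptor of cytotoxic T cells, was 2.36, 0.879 and 0 CPM in WT replicates 1 to 3 and 6.35, 5.09 and 10.5 CPM in Tg, from 130, 49 and 0 counts against 339, 252 and 630. That of cd8b, the partner chain, was 0.798, 0.233 and 0.122 CPM in WT, against 2.94, 2.39 and 4.87 CPM in Tg, from 44, 13 and 8 counts against 157, 118 and 292. Neither gene's groups overlapped, Tg replicate 3 was the highest pool in both, and WT replicate 1 the highest WT pool in both. The fitted log2 fold change of cd8b was 3.14 (standard error 0.80, 95% interval 1.26 to 5.03, FDR 0.112, quasi-likelihood test). For cd8a it was 2.76 (1.31, interval -0.33 to 5.86, FDR 0.298). The 2 genes are neighbours on chromosome 21 in the RefSeq order of assembly GRCz12tu, and summed they gave 3.16, 1.11 and 0.122 CPM in WT, against 9.29, 7.48 and 15.4 CPM in Tg.

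The helper co-receptor gene cd4-1 overlapped between the genotypes, at 7.84, 6.20 and 3.89 CPM in WT, against 2.77, 6.0 and 6.29 CPM in Tg (log2 fold change -0.25, standard error 0.42, FDR 0.793, quasi-likelihood test). A Tg pool was the lowest of the 6 and a WT pool the highest. Its paralogue cd4-2.2, not among the 32, was below every WT pool in each Tg pool, with 9.31, 13.4 and 12.7 CPM against 5.00, 5.68 and 7.06 CPM (log2 fold change -0.996, standard error 0.25, FDR 0.109, same test). The co-stimulatory receptor gene cd28, needed with the receptor signal to activate naive T cells, ranged from 4.69 to 6.51 CPM in WT and from 5.11 to 9.13 in Tg (0.42, 0.30, FDR 0.492). The level of tnfrsf9b, a receptor of the 4-1BB type found on activated T cells, ranged from 5.93 to 13.8 CPM in WT and from 5.11 to 10.2 in Tg (-0.42, 0.39, FDR 0.605). Both overlapped between the genotypes.

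Among the 8 genes of receptor signalling, 3 lay above WT in every Tg pool (against 14.0% of all genes) and 5 overlapped. The adaptor gene lat, which gathers the signalling complex below the receptor, read 10.1, 6.56 and 6.07 CPM in WT, against 16.2, 12.3 and 15.3 CPM in Tg (log2 fold change 0.95, standard error 0.26, 95% interval 0.34 to 1.56, FDR 0.123, quasi-likelihood test). The kinase gene lck, whose product binds the co-receptors, read 28.0, 18.2 and 20.9 CPM against 28.9, 29.4 and 34.0 CPM (0.46, 0.19, FDR 0.239), so that its groups were parted by the narrow gap between WT replicate 1 and Tg replicate 1. The phosphatase gene ptprc, which keeps Lck ready to act, had the lowest FDR of the 32. It read 432, 491 and 422 CPM in WT, against 615, 665 and 653 CPM in Tg (0.52, 0.11, interval 0.26 to 0.78, FDR 0.0853, same test). As a gene of all leukocytes it is not a measure of T cells by itself.

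The kinase gene zap70, which acts next after Lck, overlapped between the genotypes, with 43.7, 24.5 and 32.8 CPM in WT, against 34.3, 29.4 and 37.4 CPM in Tg. Its log2 fold change was 0.00 (standard error 0.22, 95% interval -0.53 to 0.53, FDR 0.997, quasi-likelihood test). The Tec family kinase genes itk and txk, which act on phospholipase C gamma, overlapped between the genotypes, each with Tg replicate 3 as the highest pool. The level of itk was 24.1, 16.4 and 16 CPM in WT, against 22.7, 19.9 and 32.8 CPM in Tg (0.42, 0.25, FDR 0.413), and that of txk 4.63 to 5.81 against 5.80 to 8.50 CPM (0.45, 0.26, FDR 0.386). The adaptor gene sh2d1ab, related to SAP of SLAM family receptors, ranged from 7.46 to 13.3 CPM in WT and from 8.08 to 10.4 in Tg (-0.17, 0.27, FDR 0.775). The gene cd247l, named for likeness to the zeta chain of the receptor complex, ranged from 2.99 to 5.36 CPM and from 2.36 to 5.27 CPM (-0.13, 0.41, FDR 0.895). Neither of the last pair was parted by genotype.

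Of the 8 transcription factor genes, 3 lay above WT in every Tg pool (against 14.0% of all genes). The level of tbx21 (T-bet, the factor of type 1 helper, cytotoxic and NK cells) was 20.6, 10.6 and 12.6 CPM in WT, against 23.1, 22.0 and 25.4 CPM in Tg (log2 fold change 0.69, standard error 0.26, FDR 0.214, quasi-likelihood test). For tox, needed for Cd4 lineage T cells in the mouse thymus and for NK cells, it was 8.93, 5.90 and 7.36 CPM against 11.2, 12.2 and 10.1 CPM (0.59, 0.23, FDR 0.224). For tcf7, a Wnt pathway factor that sets off T cell commitment in the mouse, it was 1.71, 2.24 and 3.78 CPM against 4.14, 4.75 and 4.89 CPM (0.83, 0.39, FDR 0.292). In tbx21 and tox the highest WT pool was replicate 1, and in tcf7 it was replicate 3.

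The other 5 factor genes overlapped. The level of lef1, a relative of tcf7, was uneven, with 0.653, 1.63 and 1.22 CPM in WT, against 2.00, 0.465 and 0 CPM in Tg, so that 1 Tg pool was the highest of the 6 and another had no count (log2 fold change -0.51, standard error 1.43, FDR 0.886, quasi-likelihood test). Its Tg counts were 107, 23 and 0. For bcl11ba, a factor that fixes T cell identity in mammals, the level was 10.3, 7.6 and 8.35 CPM against 7.59, 11.6 and 18.1 CPM (0.50, 0.33, FDR 0.455), with 1 Tg pool the lowest and another the highest of all. The regulatory T cell factor foxp3a was at 7.08, 3.94 and 5.40 CPM in WT, against 2.79, 4.81 and 3.17 CPM in Tg, the most negative log2 fold change of the 32 (-0.61, 0.36, FDR 0.406), with an overlap by 1 Tg pool. The cytotoxic lineage factor runx3 ranged from 45.8 to 51.6 CPM and from 36.9 to 54.8 CPM (-0.03, 0.17, interval -0.43 to 0.37). The T-box factor eomesa ranged from 6.30 to 9.36 CPM and from 7.21 to 12.3 CPM (0.21, 0.29, FDR 0.730). A second row with the symbol EOMES (ENSDARG00000104243), the lower of the 2, was at -0.44 (0.42, FDR 0.621).

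Of the 7 cytotoxic effector genes, nkl.4 and fasl lay above WT in every Tg pool (against 14.0% of all genes) and 5 overlapped. The NK-lysin gene nkl.4 read 16.3, 6.72 and 5.20 CPM in WT, against 30.7, 22.4 and 21.4 CPM in Tg, with all Tg pools above WT replicate 1, the highest WT pool. Its log2 fold change was 1.4 (standard error 0.44, 95% interval 0.37 to 2.42, FDR 0.153, quasi-likelihood test). The nearby copy nkl.2 read 27.4, 8.88 and 13.5 CPM in WT, against 18.9, 17.3 and 13.3 CPM in Tg (-0.01, 0.40, interval -0.95 to 0.94). The copy between them, nkl.3, read 6.17, 5.41 and 4.72 CPM in WT, against 2.19, 9.46 and 2.35 CPM in Tg (-0.22, 0.59, FDR 0.878). All 3 copies thus differed in their Tg pattern, with nkl.3 highest and lowest in Tg pools and nkl.2 highest and lowest in WT pools. They lie side by side on chromosome 17, and how reads of similar copies were shared out among them is not known, so their separate counts are uncertain.

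The gene of Fas ligand, fasl, was low, at 1.45, 0.610 and 0.579 CPM in WT, against 1.93, 1.68 and 2.05 CPM in Tg, from 80, 34 and 38 counts against 103, 83 and 123. Its groups did not overlap (log2 fold change 1.1, standard error 0.57, FDR 0.343, quasi-likelihood test). The pore-forming gene prf1.9 read 10.5, 4.77 and 4.66 CPM in WT, against 7.03, 5.46 and 6.24 CPM in Tg (-0.09, 0.38, FDR 0.925), all 3 Tg pools lying between WT replicate 1 and the other WT pools. The serine protease genes gzma and gzmk, which stand 1 gene apart on chromosome 21, read 8.06 to 12.7 and 11.2 to 12.3 CPM in WT and 8.33 to 13.8 and 9.91 to 18.2 CPM in Tg. Their log2 fold changes were 0.22 (0.29, FDR 0.721) and 0.10 (0.27, FDR 0.878). For all 7 of these genes WT replicate 1 was the highest WT pool, and their sum was 86.9, 45.7 and 48.7 CPM in WT, against 82.1, 74.7 and 77.3 CPM in Tg.

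The recombinase genes stood apart from each other. The level of rag1 was 44.8, 58.4 and 70.8 CPM in WT, against 95.3, 88.9 and 120 CPM in Tg (log2 fold change 0.81, standard error 0.20, 95% interval 0.33 to 1.28, FDR 0.109, quasi-likelihood test). That of its neighbour and partner rag2 was 19.7, 21.5 and 33.2 CPM in WT, against 21.2, 17.8 and 39.3 CPM in Tg (0.07, 0.34, interval -0.73 to 0.87, FDR 0.933). Every Tg pool lay above WT for rag1, and the groups were mixed for rag2. In both genes replicate 3 was the highest pool of each genotype. Of 12 genes that act with the recombinase, 10 act in joining the cut ends and 2 (hmgb1a and hmgb2a) as DNA-bending cofactors of the cut. Of the 12, 0 passed an FDR under 0.05 (median log2 fold change -0.06). At an unadjusted p under 0.05, 1 was lower and 0 higher, against 10.8% and 9.07% of all genes. The 12 included the Ku genes xrcc5 (-0.40, standard error 0.12, FDR 0.152) and xrcc6 (-0.27, 0.12, FDR 0.273). The gene dntt, which adds bases at the joints, was at -0.47 (0.43, FDR 0.596). B cell markers, 12 genes, summed to 1088, 1036 and 1538 CPM in WT, against 1417, 1493 and 1304 CPM in Tg. At an unadjusted p under 0.05, 4 were higher and 0 lower (against 9.07% and 10.8% of all genes), with 0 past the FDR in the quasi-likelihood test. The kinase gene btk (0.62, 0.13, FDR 0.0853) and the heavy chain gene ighd (1.82, 0.45, FDR 0.109) had the smallest p of the 12, whose median log2 fold change was 0.24. DESeq2 called 3 of the 12 higher and 0 lower at an adjusted p under 0.05 (against 2.53% and 5.59% of all genes). The part of B cell precursors in the rag1 levels was not tested.

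The last 2 genes are not specific to lymphocytes. The phosphatase gene dusp2, induced in activated immune cells, varied more among WT pools than between genotypes, with 170, 24.2 and 60.4 CPM in WT, against 192, 121 and 143 CPM in Tg (log2 fold change 0.84, standard error 0.62, FDR 0.504, quasi-likelihood test). Only WT replicate 1 overlapped with Tg. The cytoskeletal linker gene ccdc88b was at 284, 392 and 337 CPM in WT, against 344, 410 and 380 CPM in Tg (0.16, 0.15, FDR 0.593). Its groups overlapped.

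Ratios of 2 genes within a pool do not depend on how libraries are scaled. Those given here are of related genes, chosen after their values were seen, and are a description. Of 12 pairs compared, 5 had groups that did not overlap, and all 5 are given here. No share over other gene pairs was computed to set beside this count. In each of the 5 the first gene by itself lay above WT in every Tg pool and the second overlapped. These ratios therefore restate the levels of the single genes and are not separate evidence. An exact permutation test of 3 pools against 3 cannot give a p below 0.1, so it could not call any pair. Ratios of nkl.4 to nkl.3, nkl.2 to nkl.3, itk to txk, tbx21 to eomesa and tcf7 to lef1 overlapped between the genotypes. The ratio of cd8a to cd4-1 counts was 0.301, 0.142 and 0 in WT and 2.29, 0.848 and 1.67 in Tg, and that of cd8b to cd4-1 was 0.102, 0.0376 and 0.0314 against 1.06, 0.397 and 0.775. Both Cd8 chain genes thus read higher against cd4-1 in every Tg pool than in any WT pool. Which cells carried these transcripts was not tested. The ratio of cd8a to cd8b was steady in Tg at 2.16, 2.14 and 2.16 and uneven in WT at 2.95, 3.77 and 0. The ratio of nkl.4 to nkl.2 was 0.596, 0.758 and 0.386 in WT and 1.63, 1.29 and 1.6 in Tg. For rag1 to rag2 it was 2.27, 2.71 and 2.13 against 4.49, 5.0 and 3.06, and for lck to zap70 0.640, 0.743 and 0.636 against 0.842, 1.0 and 0.909. The ratio of gzma to gzmk overlapped between the genotypes, at 1.03, 0.721 and 0.672 in WT and 1.16, 0.829 and 0.756 in Tg.

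**Figure D3:**
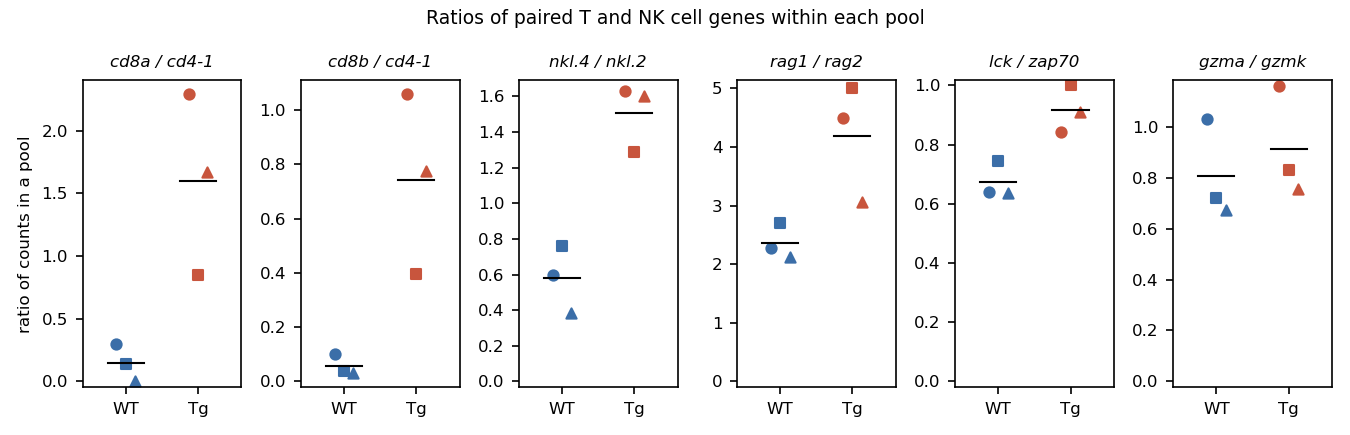
Ratio of the counts of 2 genes within each pool (vertical axis, no unit) for 6 of 12 pairs compared, chosen after their values were seen. The 6 include all 5 pairs whose groups did not overlap. WT is in blue and Tg in red, with circles, squares and triangles for replicates 1, 2 and 3 and a bar at the mean. Tg points lie above all WT points in the first 5 panels, with cd8a to cd4-1 at 0 to 0.301 in WT and 0.848 to 2.29 in Tg, and overlap for gzma to gzmk.

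The pools of 1 genotype differed in a way shared by many of the 32 genes. WT replicate 1 was the highest WT pool for 22 of them, where it was highest for 34.2% of all genes tested, and WT replicate 3 for 3. The 22 included all 7 cytotoxic effector genes and 6 of the 8 signalling genes but neither recombinase gene. Among Tg pools, replicate 3 was highest for 17 of the 32 (31.3% of all genes). The median of the 32 genes, as log2(CPM + 0.5) relative to the WT mean, was 0.31, -0.16 and -0.08 in WT and 0.31, 0.28 and 0.57 in Tg, so WT replicate 1 stood with the Tg pools. WT replicate 1 was also the highest WT pool for 10 of 10 kidney tubule markers. These summed to 4821 CPM there, 1616 and 1698 CPM in the other WT pools and 1090 to 1408 CPM in Tg. At an FDR under 0.05, 2 of 10 were lower in Tg (against 0.373% of all genes). The 2 were slc13a1 and slc12a3, sodium-coupled transporters, at log2 fold changes of -3.49 and -1.48 and FDR of 0.0198 and 0.0418 (quasi-likelihood test). With any 1 pool but Tg replicate 1 left out, 0 or 1 of the 10 passed. WT replicate 1 was the highest WT pool for 0 of 7 macrophage and 0 of 5 neutrophil markers. The part of tubule RNA in these levels was not tested.

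Without WT replicate 1 the 32 genes had a higher median log2 fold change, 0.48 against 0.32. This pool was the highest WT pool for 22 of the 32, so leaving it out raises Tg against WT by that choice. The values without it are a description. The test then called nkl.4 (log2 fold change 2.06, FDR 0.0481, quasi-likelihood test), the 1 of the 32 past the threshold, against 0.134% of all genes higher. At an unadjusted p under 0.05, 12 were higher (against 8.44%), in 16 every Tg pool lay above both WT pools (against 18.5%). The value of dusp2 moved from 0.84 to 1.85, that of cd8b from 3.14 to 4.25 (FDR 0.0759), that of nkl.2 from -0.01 to 0.56 and that of prf1.9 from -0.09 to 0.40.

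**Figure D4:**
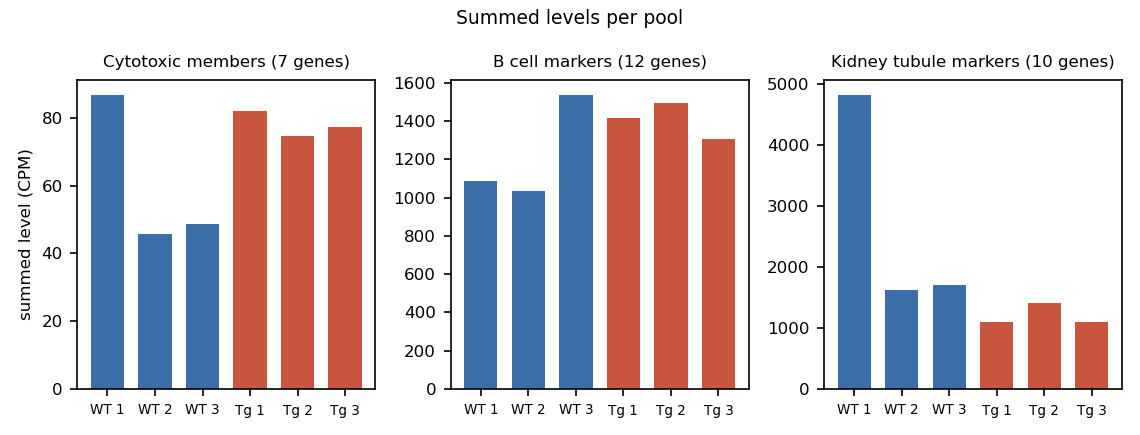
Summed level in CPM of the 7 cytotoxic effector genes, 12 B cell markers and 10 kidney tubule markers (vertical axes from 0) in each of the 3 WT (blue) and 3 Tg (red) pools. WT replicate 1 is the highest pool for the effector genes (86.9 CPM) and the tubule markers (4821 CPM) and not for the B cell markers.

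Other genes of T and NK cells, in 4 lists with no gene shared with the 32, had 0 genes past an FDR under 0.05 in the quasi-likelihood test. Their counts at an unadjusted p under 0.05 stand beside the 9.07% higher and 10.8% lower of all genes. Of 11 T cell surface genes tested, 2 were higher and 1 lower at an unadjusted p under 0.05 (median log2 fold change 0.22). The shared cytokine receptor chain gene il2rga had 0.46 (standard error 0.14, FDR 0.148), and cd4-2.2, given above, was the 1 lower. Of 24 genes of receptor signalling, 3 were higher and 0 lower (median 0.12). The adaptor gene skap1, a partner of integrin activation in T cells, read 23.0, 11.4 and 21.2 CPM in WT, against 38.6, 35.4 and 42.7 CPM in Tg (1.07, 0.27, FDR 0.109), and the calcium-regulated factor gene nfatc2a was at 0.35 (0.14, FDR 0.231).

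Of 20 further transcription factor genes, 3 were higher and 2 lower at an unadjusted p under 0.05 (median 0.22), with rorcb, related to the type 17 factor, at -0.70 (standard error 0.19, FDR 0.119, quasi-likelihood test) and the E protein gene tcf12 at 0.55 (0.17, FDR 0.146). Paralogues of 2 members were among them. The level of foxp3b was 0.871, 0.215 and 1.45 CPM in WT, against 0.843, 2.71 and 4.76 CPM in Tg (1.71, 0.87, FDR 0.332), opposite in sign to foxp3a with both groups overlapping, and bcl11bb was at -0.03 (0.32, FDR 0.972). Of 18 further effector and cytokine genes, 2 were higher and 1 lower (median 0.27), led by the tumour necrosis factor gene tnfb (0.78, 0.24, FDR 0.152) and il13 (1.42, 0.55, FDR 0.219). DESeq2, run without the filter on low counts, covered 21 genes of this list. It called 1 higher and 0 lower at an adjusted p under 0.05 (against 2.53% and 5.59% of all genes).

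Markers of the other cells of the kidney gave a mixed picture beside these genes. By the same test 2 of 7 progenitor markers rose in Tg at an FDR under 0.05 (against 0.224% of all genes). These were the transcription factor gene gata2b (log2 fold change 2.95, FDR 0.0198, quasi-likelihood test) and the stem cell factor receptor gene kita (1.1, FDR 0.0448). Only 0 or 1 of the 7 passed when any 1 pool but Tg replicate 1 was left out. Of 7 macrophage markers 0 passed, with csf1ra, the receptor of macrophage colony-stimulating factor, at -1.06 (FDR 0.077) and the complement gene c1qc at -0.60 (FDR 0.256), and the list summed to 1349 to 2503 CPM in WT and 1126 to 1696 in Tg. Neutrophil (5 genes), erythroid (6) and thrombocyte (6) markers had 0 past the FDR. At an unadjusted p under 0.05 they had 1, 0 and 1 higher and 0 lower (against 9.07% and 10.8% of all genes). Their smallest p were those of npsn (0.77, FDR 0.241) and csf3r (-0.39, FDR 0.304) in neutrophils, gata1a (-0.52, FDR 0.349) and tfr1a (0.36, FDR 0.412) in the erythroid list, and itga2b (0.78, FDR 0.152) and mpl (0.35, FDR 0.437) in thrombocytes. The part of shifts in these cell types in the levels of T and NK cell genes was not tested.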

How the data were processed

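The authors isolated poly(A) RNA from pooled kidney marrow cells and sequenced paired ends. The submitters' processing notes name Cutadapt 1.9, HISAT2 2.0.4, StringTie 1.3.4d and assembly GRCz11. The deposited values are whole-number counts per gene and library, without normalization; no source used here says how they were made from the assembled transcripts. The study calls the pools biological triplicates.

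The 34 genes were matched by their own symbol (21), a RefSeq synonym (1, faslg for fasl) or the human symbol of their stem in the name table (10: zap70, itk, tcf7, lef1, tox, runx3, eomesa, rag1, rag2 and dusp2). Of 182 genes in 12 further lists, 142 had a row. The members and lists were chosen with earlier results of these data known. Every member was named, and of each other list the genes past the test or else the 2 with the smallest p. Paralogues of members (the second EOMES row, foxp3b and bcl11bb) could be given beside them. The genes il4, il10, il22, gata3, ccr7, dntt, trbc1, hmgb1a and hmgb2a were named after their values were seen.

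In R 4.3.3, edgeR 4.0.16 (filterByExpr, TMM, glmQLFit and glmQLFTest) tested Tg against WT in 20123 genes with Benjamini-Hochberg adjustment; intervals are 95%. Alternatives were DESeq2 1.42.0, limma-voom (limma 3.58.1), other scalings and filters, a replicate block and leaving out each pool. The procedure was tested on simulated data.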

Additional observations from a re-analysis of the deposited data

How the results depend on the processing

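Of the 32 genes, 20 kept the sign of their log2 fold change in all 13 alternatives and 12 changed it in at least 1, none of them past the threshold in either state. DESeq2 called 5 genes higher, against 0 by the quasi-likelihood test, and scaling by library size alone left 5 higher at an unadjusted p under 0.05, against 8. Leaving out 1 pool at a time gave 0 to 1 called higher, 5 to 12 higher and 0 to 1 lower at an unadjusted p under 0.05 (against 5.18 to 8.44% and 8.29 to 12.4% of all genes), 11 to 16 with all Tg pools above WT and 0 to 2 below (against 16.7 to 20.8% and 17.5 to 21.3%), and a median log2 fold change of 0.17 to 0.48. Over all genes, where 45 were called higher and 75 lower, DESeq2 called 639 and 1414, limma-voom 25 and 25, and a minimum of 1 CPM in 3 libraries 59 and 114. Without WT replicates 1, 2 and 3 the calls were 28 and 55, 2 and 2, and 0 and 1, and without Tg replicates 1, 2 and 3 they were 28 and 60, 0 and 0, and 0 and 0. The fit with the replicate number as a block called 0 of the 32 in either direction and 0 higher and 1 lower of all genes, with 7 of the 32 higher and 0 lower at an unadjusted p under 0.05 (against 7.65% and 9.65% of all genes) and a median of 0.31. The numbers are not stated to mark a shared batch, so they were not taken to pair the samples. Deviations of pools with the same number from their group means had correlations of -0.0869, -0.135 and 0.129. Those of pools with different numbers ranged from -0.183 to 0.245. With 3 pools per genotype these correlations cannot show whether a batch was shared. Counts of 0 in single pools of cd8a and lef1 are limited by depth to at most 0.0457 and 0.0501 CPM. The causes of these shifts were not tested.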

Other observations

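The cytokine genes of type 2 helper cells given here were chosen after their values were seen. The row of il4 had 0 counts in each WT pool and 35, 16 and 11 counts in Tg (0.656, 0.323 and 0.184 CPM). These were too few for the filter on low counts, so the quasi-likelihood fit with this filter did not test il4. DESeq2 and the fit without the filter included it, and their values for it are not given here. The level of il13, the related cytokine, was 0.853, 0.789 and 0.945 CPM in WT, against 3.75, 1.64 and 1.55 CPM in Tg, with no overlap (log2 fold change 1.42, standard error 0.55, FDR 0.219, edgeR's quasi-likelihood test). The cytokine gene il10 went the other way, at 3.81, 3.91 and 4.15 CPM in WT, against 1.57, 2.91 and 1.89 CPM in Tg. Its groups did not overlap (-0.90, 0.37, FDR 0.245, same test). The transcription factor gene gata3 overlapped between the genotypes (0.18, 0.42, FDR 0.857). For il22, a type 17 cytokine, counts were 0, 7 and 0 in WT and 0, 8 and 0 in Tg. The homing receptor gene ccr7, which guides naive T cells and mature dendritic cells, was at a log2 fold change of 1.35 (standard error 0.46, FDR 0.182, same test).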
